A study of Mus musculus with 9 samples.

Results

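Marker genes of 3 kinds of innate immune cell were followed here through mouse corneas: 25 genes of monocytes and macrophages, 10 of dendritic cells and 11 of neutrophils. The members were rows of the array whose platform annotation gives exactly 1 gene symbol, that of a listed marker, and the brightest row by its mean over the 9 arrays was taken for a gene with several. All 46 listed genes had such a row, out of 22180 genes measured. Whole corneas of 3 groups were compared: rescued (the corn1 mutation of Dstn together with a genetic loss of Srf in the corneal epithelium), mutant (the corn1 mutation of Dstn alone) and WT. Every group, WT included, was given doxycycline by intraperitoneal injection on postnatal days 28 to 58, was taken at day 58 and was of mixed stock, with FVB, Swiss Black, A.BY and C57BL6/J as well as 129 in its background. Each group had 3 biological replicates, each a pool of 10 corneas from 5 mice on 1 array, so mouse-to-mouse variation within a pool is averaged and cannot be seen. The labels name neither the promoter that drove the loss of Srf nor the transgenes that the WT and mutant mice carried.

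Macrophages, dendritic cells and neutrophils are leukocytes of the myeloid line. Macrophages take up debris and antibody-coated particles through scavenger and Fc receptors, dendritic cells carry antigen to lymph nodes and present it to T cells, and neutrophils are short-lived cells that leave the blood early in inflammation. The normal cornea has no blood vessels and holds few leukocytes, most of them macrophages of the stroma and dendritic cells of the epithelium, and both kinds become more numerous in an inflamed or vascularised cornea.

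The levels are log2 intensities as the authors normalised them, and a difference of 1 is a change of 2-fold in measured intensity. The median of all rows was 6.77, and no detection calls were used, so whether a level near or below that median lies above background is not known. Mean levels were below 6.77 for 22 of the 46 markers in rescued corneas, for 19 in mutant corneas and for 31 in WT corneas. In all 3 groups the mean was below it for 3 macrophage, 7 dendritic cell and 9 neutrophil markers. A fold whose lower group lies below 6.77 is therefore written as a lower bound, on the assumption that background is added to such signals. Differences were tested with limma over all genes, and "called" means a Benjamini-Hochberg adjusted p under 0.05. Dstn matched the labels, and Srf was lower in rescued than in mutant corneas. Between rescued and WT corneas Srf was not called (log2 difference −0.12, limma, adjusted p = 0.787). Dstn was at 5.61 to 5.63 in the rescued pools and 5.54 to 5.80 in the mutant pools, against 12.55 to 12.59 in the WT pools. Srf was at 9.14, 9.45 and 8.45 in rescued pools 1, 2 and 3, against 10.77, 10.72 and 10.55 in the mutant pools, and at 8.98 to 9.23 in the WT pools. Arrays of 1 group correlated at 0.990 to 0.993 over all rows and arrays of different groups at 0.971 to 0.988. Defining markers of the cornea were bright, with Krt12, the keratin of corneal epithelium, averaging 13.92 in rescued, 13.53 in mutant and 13.95 in WT corneas.

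The first comparison, mutant with WT, asked which transcripts change in corneas without normal Dstn, the gene for an actin-depolymerising protein. Of the 25 monocyte and macrophage markers 24 were higher in mutant corneas and none was lower, with a median log2 difference of 1.30. Of the 10 dendritic cell markers 6 were higher and 1 was lower (median 0.44), and of the 11 neutrophil markers 4 were higher and 1 was lower (median 0.43). Among all genes 15.1% were called higher and 16.5% lower, with a median difference of −0.02. In whole corneas, more cells of a type and more RNA per cell cannot be told apart. The same holds for fewer cells and less RNA per cell.

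**Figure D1:**
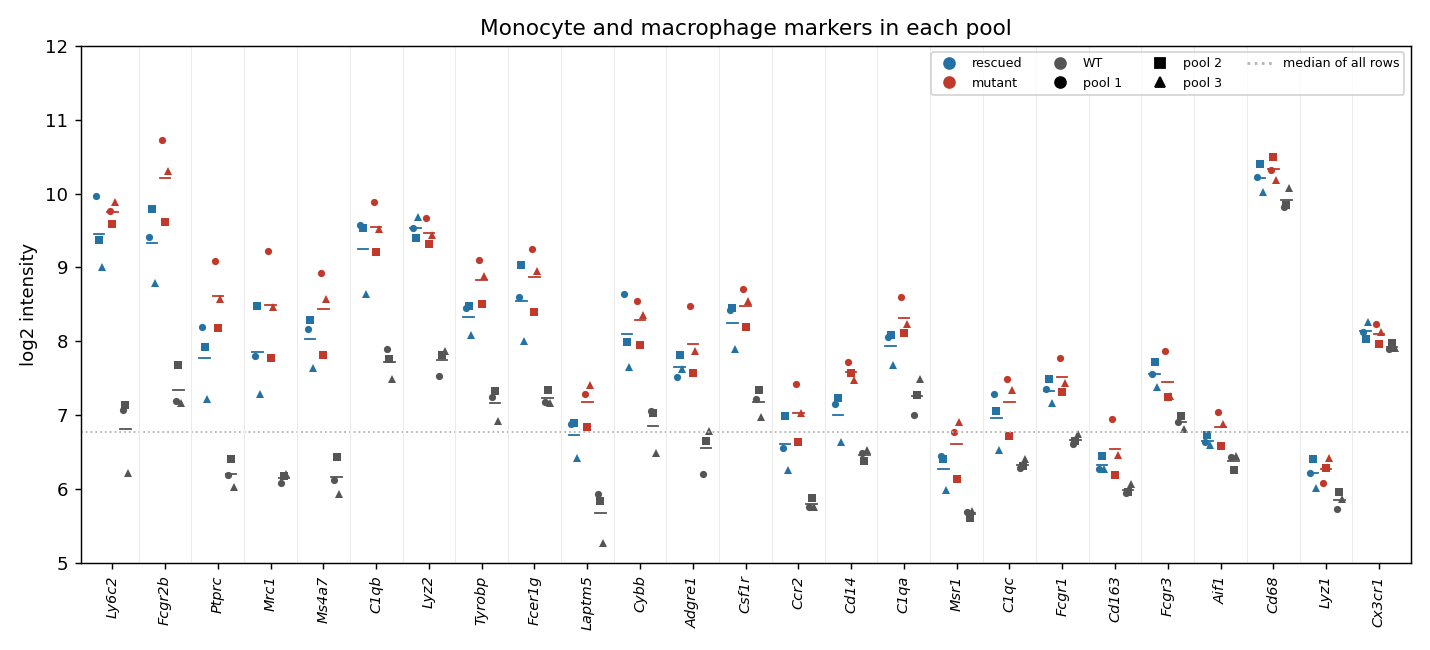
Log2 intensity of the 25 monocyte and macrophage markers in each pool (points, shaped by pool number) with the mean of the 3 pools of a group (lines), ordered by the mutant minus WT difference; the dotted line is the median of all rows. Every mutant pool lies above every WT pool for Ly6c2, Fcgr2b and Ptprc on the left, and the groups overlap for Cx3cr1 on the right.

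The steepest differences among the macrophage markers were of receptors and surface proteins. Ly6c2, a surface protein of inflammatory monocytes, was at 9.77, 9.59 and 9.89 in mutant pools 1, 2 and 3, against 7.07, 7.14 and 6.22 in the WT pools. The groups did not overlap, and Ly6c2 was 7.69-fold higher in mutant corneas (log2 difference 2.94, SE 0.28; limma, adjusted p = 3.42e-05). Its near-identical neighbour Ly6c1, which endothelium also expresses, was higher too (log2 difference 1.80, SE 0.25, adjusted p = 0.000357), and the 2 genes may share signal. Fcgr2b, the inhibitory receptor for IgG, was at 10.72, 9.61 and 10.31 in mutant pools, against 7.19, 7.68 and 7.16 in WT pools. Mutant pool 2 was the lowest of the 3 and still above every WT pool, and the gene was 7.31-fold higher in the mutant (log2 difference 2.87, SE 0.31; limma, adjusted p = 8.05e-05). Fcgr2b is also made by B cells, whose markers Ms4a1, Cd79a and Cd79b had differences of 0.09, −0.10 and 0.19 that were not called. Ms4a1 and Cd79a lay below the median row in every group, and the part of B cells in the Fcgr2b value was not tested. Ptprc, the gene for CD45, which all leukocytes carry, was at 9.08, 8.18 and 8.57 in mutant pools and at 6.19, 6.41 and 6.03 in WT pools. The WT level lay below the median row and the mutant level well above it, a difference of 2.40 (SE 0.27; at least 5.29-fold; limma, adjusted p = 0.000108).

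Mrc1, Ms4a7 and the C1q genes of macrophages were higher in the same pools. Not every macrophage gene was, with Cx3cr1 not called (0.18) and the non-members Folr2 (−0.44) and Mertk (−0.36) lower. Mrc1, the mannose receptor, was at 9.22, 7.78 and 8.46 in mutant pools, against 6.08, 6.18 and 6.20 in WT pools. Its mutant pools were spread over more than 1 log2 unit, yet none reached the WT range, and the difference was 2.33 (SE 0.36; at least 5.04-fold; limma, adjusted p = 0.000736). Ms4a7, a membrane protein of macrophages, was at 8.92, 7.81 and 8.57 in mutant pools and at 6.12, 6.43 and 5.93 in WT pools. That is a difference of 2.27 (SE 0.27; at least 4.84-fold; limma, adjusted p = 0.000154), again with mutant pool 1 highest and pool 2 lowest. C1qb, a chain of the complement component C1q, which macrophages secrete, was at 9.89, 9.21 and 9.52 in mutant pools and at 7.90, 7.76 and 7.49 in WT pools. The groups were apart by more than 1 log2 unit, with a difference of 1.83 (SE 0.25; 3.55-fold; limma, adjusted p = 0.000411). Its partner chains C1qa and C1qc had smaller differences of 1.06 and 0.85, both called.

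Lyz2, the lysozyme of myeloid cells, had the lowest adjusted p of the macrophage list. It was at 9.66, 9.32 and 9.43 in mutant pools and at 7.53, 7.82 and 7.87 in WT pools, a 3.32-fold difference (log2 1.73, SE 0.12; limma, adjusted p = 6.12e-06). Lyz1, a near-identical copy made in the gut, was at 6.08 to 6.42 in mutant pools and 5.73 to 5.96 in WT pools, and its difference of 0.41 may hold signal from Lyz2. Fcer1g and Tyrobp encode the adaptor chains through which activating Fc receptors and related receptors signal, in macrophages as well as in mast and NK cells. Fcer1g was at 9.25, 8.40 and 8.96 in mutant pools, against 7.18, 7.35 and 7.16 in WT pools (log2 difference 1.64, SE 0.26; 3.11-fold; limma, adjusted p = 0.000953). Tyrobp was 3.17-fold higher in the mutant. The activating IgG receptors Fcgr1 and Fcgr3 had differences of 0.85 and 0.55, smaller than that of the inhibitory Fcgr2b. These receptors are similar in sequence, and signal shared between them was not tested.

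The other macrophage markers had smaller differences than Lyz2. Adgre1, the gene for F4/80, had a difference of 1.42 (SE 0.22), Csf1r, the receptor for the macrophage growth factors CSF1 and IL-34, of 1.30 (SE 0.18), and Ccr2, the chemokine receptor that brings monocytes out of the blood, of 1.23 (SE 0.21). Cybb, the catalytic subunit of the phagocyte NADPH oxidase, had a difference of 1.43 (SE 0.26), and Laptm5, a lysosomal protein of leukocytes, of 1.5 (SE 0.21). Cd14, the receptor that presents bacterial lipopolysaccharide, was at 7.72, 7.57 and 7.48 in mutant pools and at 6.48, 6.38 and 6.53 in WT pools (log2 difference 1.12, SE 0.14; at least 2.18-fold; limma, adjusted p = 0.000234). The scavenger receptors Msr1 and Cd163 (0.93 and 0.55), the actin-binding Aif1 (0.46) and the lysosomal Cd68 (0.41) were called with smaller differences. Calls of Cd68, Lyz1, C1qc, Cd163 and Fcgr3 were each lost without some of the pools: Cd68 without mutant pool 1 or 2 or WT pool 1 or 2, Lyz1 without mutant pool 2 or 3 or WT pool 1 or 3, C1qc without mutant pool 1 or 3, Cd163 without WT pool 1 or 2, and Fcgr3 without WT pool 1 or 3. Cd68 was at 10.32, 10.5 and 10.18 in mutant pools, against levels in WT pools that were already high, at 9.83, 9.85 and 10.08. Cx3cr1, the fractalkine receptor of resident macrophages and patrolling monocytes, was the member not called. It was at 8.23, 7.96 and 8.12 in mutant pools and at 7.89, 7.98 and 7.91 in WT pools, so that the groups overlapped (log2 difference 0.18, SE 0.09; limma, adjusted p = 0.161).

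**Figure D2:**
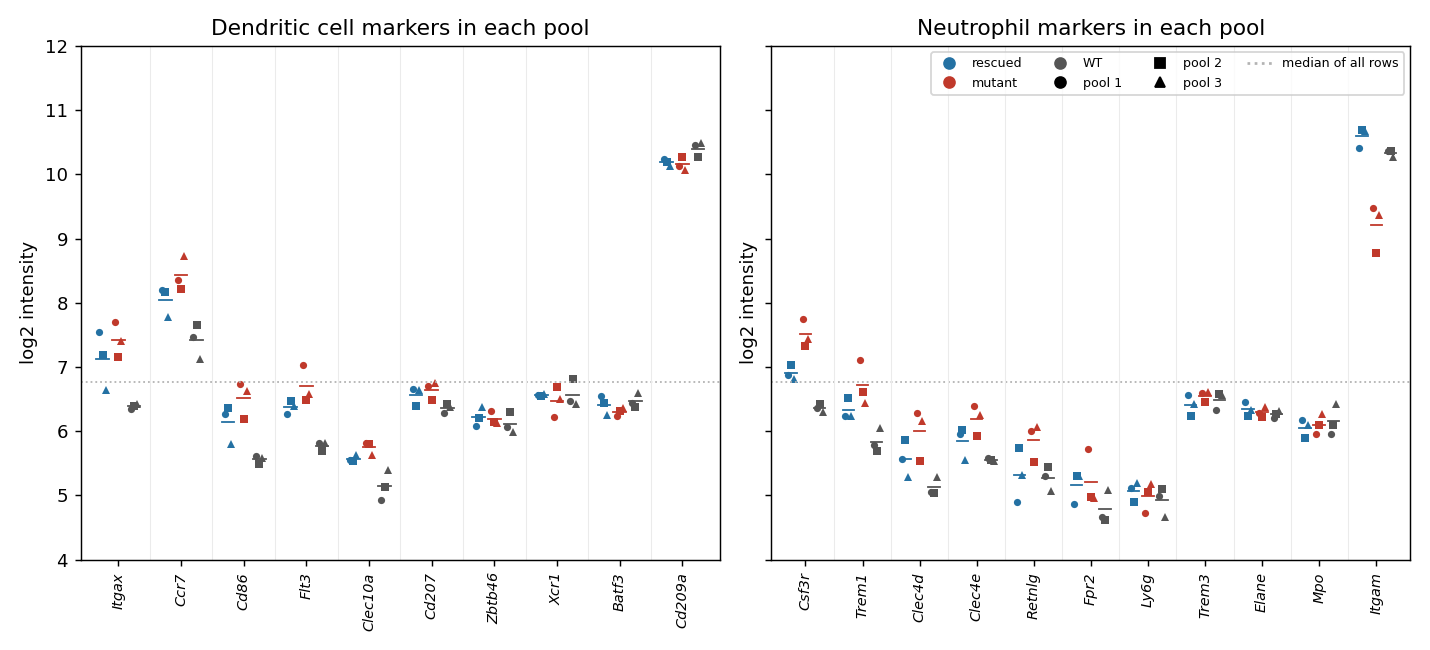
Log2 intensity of the 10 dendritic cell markers (left) and the 11 neutrophil markers (right) in each pool, drawn as for the macrophage markers. Most levels lie near or below the dotted median of all rows, Itgam and Cd209a lie above 8.7 in every pool, and Itgam alone is low in the mutant pools and high in the rescued pools.

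Most dendritic cell markers lay near or below the median of all rows, and 6 of them rose in the mutant. Itgax, the gene for the integrin chain CD11c, was at 7.69, 7.15 and 7.40 in mutant pools, against 6.35, 6.40 and 6.42 in WT pools. The WT pools lay within 0.1 of each other and the groups were apart, with a difference of 1.02 (SE 0.21; at least 2.04-fold; limma, adjusted p = 0.00374). Ccr7, the receptor that directs mature dendritic cells and some T cells to lymph nodes, was at 8.35, 8.21 and 8.73 in mutant pools and at 7.47, 7.65 and 7.13 in WT pools, which is 2.02-fold higher (log2 1.01, SE 0.18; limma, adjusted p = 0.00154). Cd86, a costimulatory ligand for T cells that macrophages make too, was at 6.73, 6.18 and 6.62 in mutant pools and at 5.61, 5.49 and 5.58 in WT pools (log2 difference 0.95, SE 0.17; limma, adjusted p = 0.00167). Both group means were below the median of all rows, although the groups did not overlap.

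Flt3, the receptor for the growth factor of dendritic cell precursors, was at 7.03, 6.49 and 6.58 in mutant pools and at 5.81, 5.69 and 5.81 in WT pools (log2 difference 0.93, SE 0.13; limma, adjusted p = 0.000442). Clec10a, a lectin of dendritic cells and macrophages, was at 5.81, 5.80 and 5.62 in mutant pools and at 4.93, 5.13 and 5.40 in WT pools (log2 difference 0.59, SE 0.11; limma, adjusted p = 0.00252). Neither gene overlapped between the groups. Cd207, the gene for langerin, which marks Langerhans cells, the dendritic cells of epithelia, was at 6.70, 6.49 and 6.75 in mutant pools and at 6.28, 6.42 and 6.37 in WT pools. Its difference of 0.29 was the smallest called rise among the dendritic cell markers (SE 0.10; limma, adjusted p = 0.0405), and its call was lost without mutant pool 1, without mutant pool 3 and without any of the WT pools. Xcr1, the chemokine receptor of cross-presenting dendritic cells, and the transcription factors Batf3 and Zbtb46, which mark conventional dendritic cells, were not called and had differences of −0.10, −0.16 and 0.08.

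Cd209a, a C-type lectin of the DC-SIGN family, was the dendritic cell marker called lower. Its row was bright and almost level, at 10.13, 10.27 and 10.06 in mutant pools and at 10.46, 10.27 and 10.48 in WT pools, and the groups overlapped (log2 difference −0.25, SE 0.08; limma, adjusted p = 0.0446). A second row for the same symbol, dimmer and for that reason not used, was at 8.75, 7.97 and 7.97 in mutant pools and at 5.75, 6.58 and 5.73 in WT pools. There the difference ran the other way (2.21, SE 0.35), so no direction is given for Cd209a.

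The neutrophil markers split further. Csf3r, the receptor for granulocyte colony-stimulating factor, was at 7.74, 7.33 and 7.44 in mutant pools and at 6.36, 6.42 and 6.30 in WT pools. All mutant pools were above all WT pools, a difference of 1.14 (SE 0.11; at least 2.21-fold; limma, adjusted p = 3.32e-05). Trem1, an activating receptor of neutrophils and monocytes that amplifies inflammation, was at 7.10, 6.61 and 6.44 in mutant pools, against 5.78, 5.68 and 6.04 in WT pools (log2 difference 0.88, SE 0.17; limma, adjusted p = 0.00271). Clec4d and Clec4e, lectins of neutrophils and macrophages that bind fungal and mycobacterial glycolipids, had differences of 0.87 (SE 0.20; limma, adjusted p = 0.00739) and 0.64 (SE 0.14; limma, adjusted p = 0.00638). Clec4d was at 6.29, 5.54 and 6.16 in mutant pools and at 5.05, 5.04 and 5.29 in WT pools. Clec4e was at 6.39, 5.93 and 6.25 in mutant pools and at 5.58, 5.55 and 5.53 in WT pools. These 4 genes are also active in monocytes or macrophages.

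The other 6 neutrophil markers were not called. Ly6g, the usual surface marker of mouse neutrophils, was at 4.73 to 5.17 in mutant pools and at 4.67 to 5.10 in WT pools, so the groups overlapped far below the median row. The granule proteins Mpo and Elane, made in precursors of neutrophils in bone marrow, had differences of −0.06 and 0.03. Trem3, a relative of Trem1, had a difference of 0.06, and Fpr2, a receptor for formylated peptides, of 0.43 (limma, adjusted p = 0.181). Retnlg, a resistin-like protein of neutrophils, was at 5.52 to 6.07 in mutant pools and at 5.06 to 5.44 in WT pools. It did not overlap between the groups and missed the threshold (log2 difference 0.59, SE 0.21; limma, adjusted p = 0.0619).

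Itgam, the gene for the integrin chain CD11b of neutrophils, monocytes and macrophages, was the neutrophil marker called lower. It was at 9.47, 8.78 and 9.36 in mutant pools, against 10.37, 10.36 and 10.27 in WT pools. No mutant pool reached the WT range, and the gene was 2.19-fold lower in the mutant (log2 difference −1.13, SE 0.16; limma, adjusted p = 0.000502). Itgb2, the gene for CD18, the chain with which CD11b pairs, was not a member and was at 8.37, 7.84 and 8.03 in mutant pools and at 6.81, 6.95 and 6.69 in WT pools (log2 difference 1.27, SE 0.16; limma, adjusted p = 0.000208). The other CD18 partners Itgax and Itgal (0.70, adjusted p = 0.000651) were also higher in the mutant, and Itgad was not called (0.04). Genes of corneal epithelium were lower in mutant corneas in 7 of 8 cases and higher in rescued than in mutant corneas in 7 of 8, as Itgam was; their part in the Itgam value was not tested.

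Genes that work with these markers were counted beside them. Of 13 myeloid transcription factors 10 were higher in mutant than in WT corneas and 1, Id2, was lower by 1.28 on the log2 scale. Spi1, the gene for PU.1, the factor that sets up macrophage and neutrophil development, had a difference of 0.74 (SE 0.10; limma, adjusted p = 0.000347), Irf8 of 0.84 and Cebpb of 0.70. Nr4a3, a nuclear receptor induced by many stimuli, had the largest difference of this list, 2.72 (SE 0.18; limma, adjusted p = 4.09e-06). Of 8 colony-stimulating factors and receptors 3 were higher, among them Csf1 (0.78) and Il34 (0.30), the 2 ligands of Csf1r, and Csf2rb (0.96), the shared receptor chain for GM-CSF, IL-3 and IL-5; Csf2ra was lower (−0.21). Csf3, the ligand of Csf3r, was not called (0.21). All 4 NADPH oxidase subunits measured beside Cybb were higher, with Rac2 at 1.02 and Cyba at 0.84. Of 10 genes that signal below Tyrobp and Fcer1g or balance them, 8 were higher and 1, Ptpn6, was lower (−0.34); Pirb, an inhibitory receptor, was at 1.38 and Inpp5d, a lipid phosphatase, at 1.34.

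Further genes of each class, beyond the members, were counted in the same way. Of 19 macrophage genes 9 were higher and 4 lower in the mutant, with Clec7a (1.80), a receptor for fungal glucans, and Lyve1 (1.80), a hyaluronan receptor that lymphatic endothelium also makes, at the upper end and Folr2 (−0.44), Mertk (−0.36), Gas6 (−0.30) and Apoe (−0.27) lower. Of 14 dendritic cell genes 7 were higher and 4 lower. Among them Cd80, a costimulatory ligand, had a difference of 1.98, Ccl22, a chemokine of mature dendritic cells, of 1.69, and Fscn1, an actin-bundling protein of mature dendritic cells and other cells, of 1.48. Those lower were Dpp4 (−1.31), a surface peptidase, Cd40 (−0.71), a costimulatory receptor, Cadm1 (−0.48), an adhesion protein, and Naaa (−0.47), a lysosomal amidase. Of 17 neutrophil genes 9 were higher and none was lower, with a median of 0.30. These included Il1b (2.74), S100a9 (1.99), S100a8 (1.25) and Cxcr2 (1.20), and also Lcn2 (2.71) and Ltf (2.41), whose products epithelia make as well. The granule genes Camp, Ngp, Mmp8, Prtn3 and Ctsg were not called, with differences from −0.06 to 0.19.

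The promoters of the markers were read from RefSeq (build GRCm38.p6), which gave a window of 250 bases before to 50 after the start for 36 of the 46 members. The letters GAGGAA, the core that PU.1 binds in many myeloid genes, were searched on both strands. They stood in 23 of the 36 windows (63.9%), against 28.3% of 27025 gene windows of the same length. By class the count was 12 of 19 macrophage, 2 of 7 dendritic cell and 9 of 10 neutrophil windows. They stood in 17 of the 25 windows of members higher in mutant corneas and in 6 of the 11 others. The longer form GAGGAAGT, which contains the shorter, stood in 5 of the 36 windows (13.9%, against 3.28% of all) and TATAAA, the letters of a TATA box, in 7 (19.4%, against 14.2%). A match is a description of these letters and not a binding site.

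Windows of 4 genes are shown because they set genes with large differences beside genes that ran the other way or were not called; capitals mark GAGGAA or, on the other strand, TTCCTC. Ptprc (chr1:138175256-138175555, minus strand) and Fcgr2b (chr1:170976022-170976321, minus strand) were among the steepest rises in the mutant. Itgam (chr7:128062390-128062689, plus strand) was lower there, and Mpo (chr11:87793534-87793833, plus strand) was not called.
Ptprc: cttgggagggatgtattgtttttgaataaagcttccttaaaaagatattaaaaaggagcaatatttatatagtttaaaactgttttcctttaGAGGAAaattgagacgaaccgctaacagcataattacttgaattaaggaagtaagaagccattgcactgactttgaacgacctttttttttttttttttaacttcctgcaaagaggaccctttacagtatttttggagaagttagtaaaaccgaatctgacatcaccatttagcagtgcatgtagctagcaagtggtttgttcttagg
Fcgr2b: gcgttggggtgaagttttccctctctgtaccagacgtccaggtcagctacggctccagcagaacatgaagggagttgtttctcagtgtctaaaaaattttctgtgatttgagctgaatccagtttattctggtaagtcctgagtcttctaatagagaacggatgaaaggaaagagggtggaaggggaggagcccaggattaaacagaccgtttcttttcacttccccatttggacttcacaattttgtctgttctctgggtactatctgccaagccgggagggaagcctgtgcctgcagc
Itgam: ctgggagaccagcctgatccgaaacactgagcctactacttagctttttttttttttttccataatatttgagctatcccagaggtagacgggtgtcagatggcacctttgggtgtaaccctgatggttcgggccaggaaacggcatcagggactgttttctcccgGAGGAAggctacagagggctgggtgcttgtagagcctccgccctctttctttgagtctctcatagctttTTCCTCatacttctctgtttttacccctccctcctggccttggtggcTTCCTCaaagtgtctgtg
Mpo: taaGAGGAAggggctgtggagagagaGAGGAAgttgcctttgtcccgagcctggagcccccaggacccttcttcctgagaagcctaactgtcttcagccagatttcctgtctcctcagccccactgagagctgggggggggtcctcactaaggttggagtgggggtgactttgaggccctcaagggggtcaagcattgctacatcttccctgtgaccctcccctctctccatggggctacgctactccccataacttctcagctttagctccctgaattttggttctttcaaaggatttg
Ptprc holds 1 match, Fcgr2b none, Itgam 3 and Mpo 2, so among these windows the number of matches did not follow the direction or size of the difference.

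**Figure D3:**
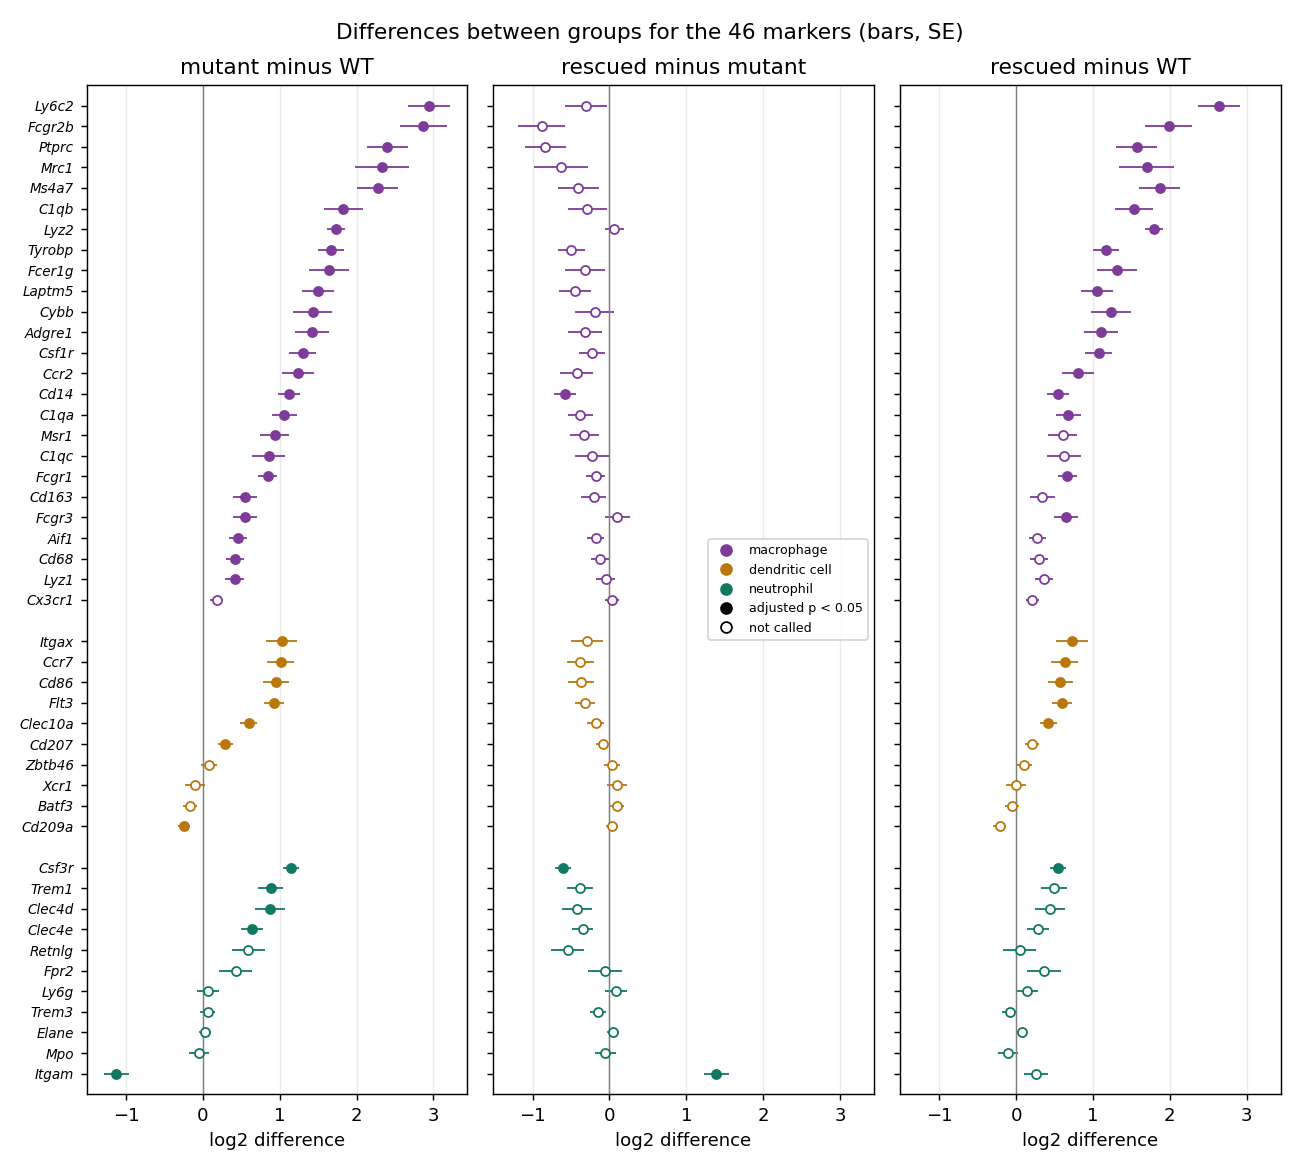
Log2 difference of each of the 46 markers (points, with the moderated SE of limma as bars) for mutant minus WT, rescued minus mutant and rescued minus WT, grouped by cell class and ordered by the left panel; filled points have an adjusted p under 0.05. In the middle panel 3 points are filled, Cd14 and Csf3r at −0.58 and −0.60 and Itgam at 1.39, while 24 are filled in the right panel, all to the right of 0.

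The second comparison, rescued with mutant, asked what the loss of epithelial Srf changes in the mutant cornea. Few markers were called. Among macrophage markers 1, Cd14, was lower in rescued corneas and none was higher (median −0.30). No dendritic cell marker was called (median −0.13), and among neutrophil markers 1, Csf3r, was lower and 1, Itgam, was higher (median −0.15). At an unadjusted p under 0.05 in limma, 5 macrophage, 2 dendritic cell (Cd86 and Flt3) and 4 neutrophil markers were lower. The share of all genes at that unadjusted threshold was not counted, so these counts have no comparison here. Among all genes 6.46% were called higher and 6.88% lower in rescued than in mutant corneas. Of the 46 markers 36 had a negative difference and 10 a positive one, with Fcgr2b and Mrc1 among those whose pools overlapped between the groups. Among all 22180 genes 10982 had a positive difference. All markers were measured in the same pools, so their signs are not independent of each other.

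Cd14 was at 7.16, 7.23 and 6.63 in rescued pools 1, 2 and 3, against 7.72, 7.57 and 7.48 in mutant pools. No pool crossed between the groups, and Cd14 was 1.5-fold lower in rescued corneas (log2 difference −0.58, SE 0.14; limma, adjusted p = 0.0257). Without mutant pool 1 or without mutant pool 2 this call was lost. Csf3r was at 6.87, 7.03 and 6.81 in rescued pools and at 7.74, 7.33 and 7.44 in mutant pools, 1.52-fold lower (log2 difference −0.60, SE 0.11; limma, adjusted p = 0.00541). Itgam was at 10.41, 10.69 and 10.68 in rescued pools and at 9.47, 8.78 and 9.36 in mutant pools, 2.62-fold higher (log2 difference 1.39, SE 0.16; limma, adjusted p = 0.000569).

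Fcgr2b and Ptprc had larger negative differences than Cd14 and Csf3r, with larger SEs, and missed the threshold. Fcgr2b was at 9.41, 9.79 and 8.79 in rescued pools, with rescued pool 2 above mutant pool 2 (log2 difference −0.88, SE 0.31; limma, adjusted p = 0.0928). Ptprc was at 8.19, 7.93 and 7.21 in rescued pools, with rescued pool 1 just above mutant pool 2 (log2 difference −0.84, SE 0.27; limma, adjusted p = 0.0736). Tyrobp was at 8.44, 8.47 and 8.08 in rescued pools and at 9.11, 8.50 and 8.88 in mutant pools, which did not overlap (log2 difference −0.50, SE 0.17; limma, adjusted p = 0.0893). These calls turned on single pools. Without mutant pool 2, 6 markers were called lower in rescued corneas, Csf3r again and newly Fcgr2b, Ptprc, Tyrobp, Msr1 and Clec4d; without mutant pool 1, only Csf3r was. Without rescued pool 1 Ptprc, and without rescued pool 2 Retnlg, was called lower beside Cd14 and Csf3r.

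Other genes had smaller differences relative to their SE. Lyz2 was at 9.53, 9.40 and 9.69 in rescued pools, inside or above the mutant range of 9.32 to 9.66 (log2 difference 0.06, SE 0.12; limma, adjusted p = 0.797). Ly6c2 was at 9.96, 9.37 and 9.01 in rescued pools, with pool 1 above every mutant pool and pools 2 and 3 below (log2 difference −0.30, SE 0.28; limma, adjusted p = 0.548). Fcgr3 and Cx3cr1 had small positive differences of 0.10 and 0.04. An adjusted p above the threshold does not show that a level stayed the same.

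Related genes were counted between rescued and mutant corneas as well. Of the 17 further neutrophil genes 7 were lower in rescued corneas and none was higher, with a median of −0.51. They were S100a9 (−1.55), S100a8 (−0.94), Cxcr2 (−0.81), Stfa3 (−0.80), Mmp9 (−0.70), Ltf (−0.66) and Stfa2 (−0.51), of which S100a8, S100a9, Ltf and the stefins are also made by stressed epithelium. Of the 14 further dendritic cell genes 3 were lower, Cd80 by 1.70 on the log2 scale, Fscn1 by 0.46 and Epcam by 0.40, and 2 were higher, Cd40 (0.41) and Cadm1 (0.37). Of the 19 further macrophage genes 1, Lyve1, was lower (−0.71). Among the transcription factors Nr4a3 (−1.43) and Cebpb (−0.55) were lower and Id2 (0.93) was higher, while Spi1 was not called (−0.26, adjusted p = 0.123). Among the genes of receptor signalling Clec5a (−0.44) and Plcg2 (−0.34) were lower, and among the oxidase subunits Cyba (−0.40) was.

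The third comparison, rescued with WT, asked how far rescued corneas remained from WT. Of the macrophage markers 18 of 25 were higher in rescued corneas, with a median of 1.05. Of the dendritic cell markers 5 of 10 were higher (median 0.31) and of the neutrophil markers 1 of 11 (median 0.26), and none of the 46 was lower (Cd209a was at an unadjusted p under 0.05 in limma). Without rescued pool 2 the total of 24 became 15. Among all genes 6.28% were called higher and 7.43% lower. Both comparisons with WT use the same 3 WT pools, so their differences are given side by side and are not independent of each other.

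Among the macrophage markers Ly6c2, Fcgr2b, Ms4a7, Lyz2, Mrc1 and Ptprc had the 6 largest differences from WT. Ly6c2 was 6.22-fold higher in rescued than in WT corneas (log2 difference 2.64, SE 0.28; limma, adjusted p = 0.000361; 2.94 for mutant minus WT). Fcgr2b was 3.96-fold higher (1.99, SE 0.31; limma, adjusted p = 0.00295; 2.87 for mutant minus WT). Ms4a7, at 8.16, 8.29 and 7.64 in rescued pools, was at least 3.65-fold higher than in WT (1.87, SE 0.27; limma, adjusted p = 0.00205). Lyz2 was 3.48-fold higher (1.80, SE 0.12; limma, adjusted p = 3.44e-05), beside 1.73 for mutant minus WT. Mrc1 was at 7.81, 8.47 and 7.28 in rescued pools, at least 3.25-fold higher than in WT (1.70, SE 0.36; limma, adjusted p = 0.0122). Ptprc was at least 2.96-fold higher (1.57, SE 0.27; limma, adjusted p = 0.00483; 2.40 for mutant minus WT).

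C1qb was at 9.57, 9.54 and 8.64 in rescued pools (log2 difference from WT 1.54, SE 0.25; limma, adjusted p = 0.00397), and Fcer1g at 8.60, 9.04 and 8.01 (1.32, SE 0.26; limma, adjusted p = 0.00952). All rescued pools of both genes were above all WT pools. Cybb (1.24), Tyrobp (1.17), Adgre1 (1.10), Csf1r (1.08), Laptm5 (1.05), Ccr2 (0.80), C1qa (0.68), Fcgr1 (0.67) and Fcgr3 (0.65) were also called higher than WT. Cd14, the macrophage marker lower in rescued than in mutant corneas, was at least 1.46-fold higher than in WT (0.54, SE 0.14; limma, adjusted p = 0.0333). The calls of Cd14, Ccr2 and Fcgr3 against WT were lost without rescued pool 1 or 2 or without any WT pool, and that of C1qa without rescued pool 1 or 2 or WT pool 1 or 2. The 6 macrophage markers called in the mutant but not in rescued corneas were Cd68, Lyz1, C1qc, Cd163, Msr1 and Aif1, with differences from WT of 0.28 to 0.63. None of these 6 was called between rescued and mutant corneas, so the data do not separate their levels in the 2 groups.

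The dendritic cell calls against WT were less firm. Itgax was at 7.54, 7.18 and 6.64 in rescued pools (log2 difference from WT 0.73, SE 0.21; limma, adjusted p = 0.044), Ccr7 at 8.20, 8.17 and 7.77 (0.63, SE 0.18; limma, adjusted p = 0.041) and Cd86 at 6.26, 6.36 and 5.80 (0.58, SE 0.17; limma, adjusted p = 0.0483). Flt3 was at 6.26, 6.47 and 6.39 (0.60, SE 0.13; limma, adjusted p = 0.0142), and Clec10a at 5.55, 5.54 and 5.63 (0.42, SE 0.11; limma, adjusted p = 0.0352). Every rescued pool of these 5 genes was above every WT pool. Their number fell to 0 without rescued pool 2, to 1 without rescued pool 1, WT pool 1 or WT pool 2, to 2 without WT pool 3 and to 3 without mutant pool 3. Cd207 was at 6.65, 6.40 and 6.64 in rescued pools and overlapped with WT (0.21; limma, adjusted p = 0.192).

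Of the neutrophil markers Csf3r was still at least 1.46-fold higher in rescued than in WT corneas (0.54, SE 0.11; limma, adjusted p = 0.00915). Trem1 was at 6.23, 6.52 and 6.24 in rescued pools (0.50; limma, adjusted p = 0.083), Clec4d at 5.57, 5.86 and 5.29 (0.44; limma, adjusted p = 0.185) and Clec4e at 5.95, 6.02 and 5.55 (0.29; limma, adjusted p = 0.232). Without mutant pool 1 Trem1 was called as well. Itgam was at 10.41 to 10.69 in rescued pools, above the WT range of 10.27 to 10.37, with a difference of 0.26 that was not called (SE 0.16; limma, adjusted p = 0.353). Ly6g was at 4.90 to 5.20 in rescued and 4.67 to 5.10 in WT pools.

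Over the 3 comparisons the macrophage markers thus fell into 4 call patterns. For 17 the level was higher in mutant and in rescued corneas than in WT and was not called between rescued and mutant. Cd14 was called in all 3 comparisons over all 9 arrays, 6 genes were called for the mutant alone, and Cx3cr1 was called in none. Csf3r had the pattern of Cd14, with rescued corneas between mutant and WT corneas in every pool. Xcr1, Batf3, Zbtb46, Ly6g, Retnlg, Mpo, Elane, Trem3 and Fpr2 were called in no comparison.

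**Figure D4:**
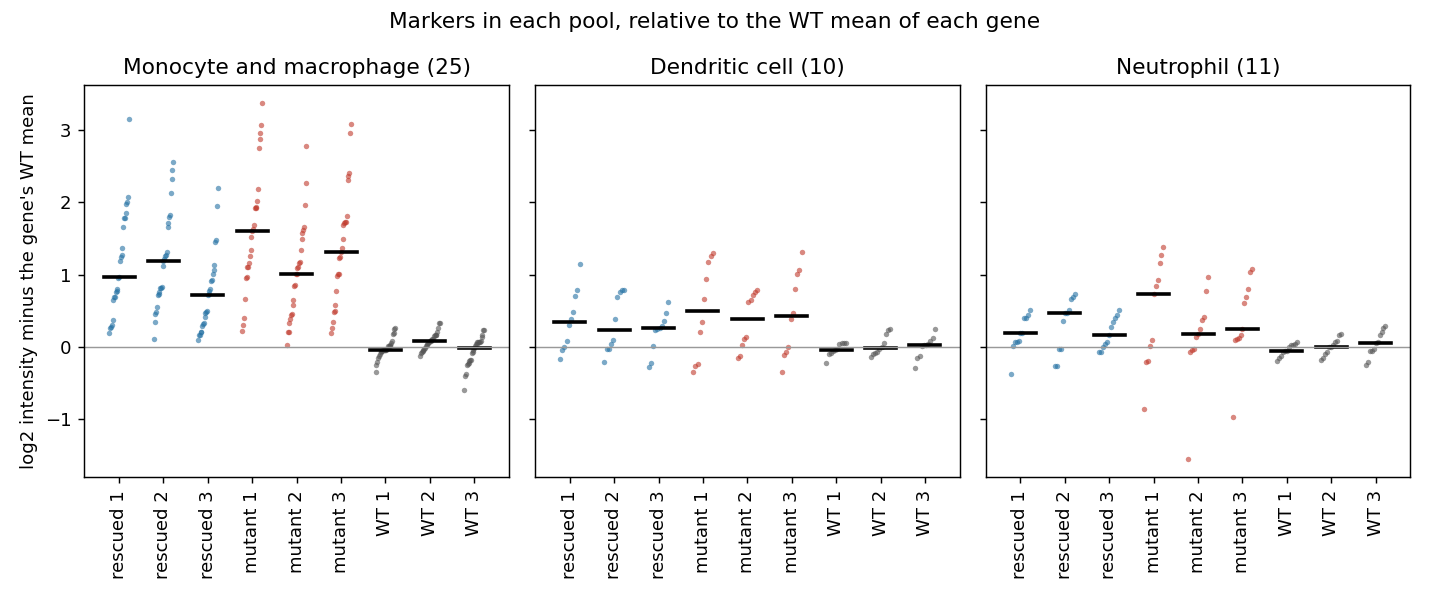
Log2 intensity of every marker minus its mean over the WT pools (points, sorted within a pool) in each of the 9 pools, with the median over the class as a bar. For macrophage markers the bar is at 0.97, 1.19 and 0.72 in rescued pools 1, 2 and 3 and at 1.60, 1.01 and 1.32 in mutant pools 1, 2 and 3, and the WT pools lie around 0.

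Rescued pools were not alike for the macrophage markers. Rescued pool 3 was the lowest of the 3 rescued pools for 21 of the 25 macrophage markers (84.0%), against 32.0% of all genes. The median macrophage marker was lower in pool 3 than in pool 1 by 0.45 and than in pool 2 by 0.41, while the median over all genes was 0.01 above pool 1 and 0.01 above pool 2. Mrc1 had the widest spread, from 7.28 in pool 3 to 8.47 in pool 2. Ly6c2, C1qb, Fcer1g, Cybb, Fcgr2b and Ptprc were also lowest in pool 3. Lyz2, at 9.69, and Cx3cr1, at 8.26, were the macrophage markers highest in pool 3. A value of 1 pool has no replicate check.

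Rescued pool 3 was the lowest for 5 of 10 dendritic cell markers and for 3 of 11 neutrophil markers, and the medians of its differences from pools 1 and 2 were −0.06 and −0.07 for dendritic cell markers and −0.06 and −0.01 for neutrophil markers. Itgax, at 6.64 in pool 3 against 7.54 in pool 1, was the dendritic cell marker with the widest spread. Measured against the other groups, pool 3 still lay above all 3 WT pools for 24 of the 25 macrophage markers, as pools 1 and 2 did for 25 (26.4% to 29.7% of all genes). It lay below all 3 mutant pools for 19 of them, against 6 for pool 1 and 5 for pool 2 (32.5% to 33.6% of all genes).

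Pools of the mutant group differed too. Mutant pool 1 was the highest for 20 of the 25 macrophage markers, against 33.5% of all genes. Mutant pool 2 was the lowest for 22 of them, against 37.5% of all genes. The median macrophage marker was 0.60 lower in mutant pool 2 than in mutant pool 1 (a median of −0.01 over all genes). Mrc1, at 9.22 in pool 1 and 7.78 in pool 2, was further apart between these pools than between the rescued and mutant means, which differed by −0.63. For 18 of the 25 macrophage markers rescued pool 3 lay between the highest WT pool and the lowest mutant pool, against 6 for rescued pool 1 and 5 for rescued pool 2. Over all 22180 genes the numbers were 2078 for rescued pool 3, 2253 for pool 1 and 2236 for pool 2. WT pools showed no such order, with WT pools 1 and 3 each lowest for 11 of the 25.

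Other lists shared some of this order. Mast cell genes were lowest in rescued pool 3 in 7 of 10 cases, T, B and NK cell genes in 8 of 13 and receptor signalling genes in 8 of 10. Among all genes the share lowest in rescued pool 3 was 32.0%. Blood endothelial genes were lowest in rescued pool 3 in only 1 of 10 and were lowest in rescued pool 1 in 8 of 10 (35.3% of all genes). Genes of corneal epithelium were highest in rescued pool 3 in 7 of 8, against 37.3% of all genes. Srf itself was at 8.45 in rescued pool 3, below pools 1 and 2 at 9.14 and 9.45. In the mutant group pool 2 was lowest for 10 of 10 endothelial and 9 of 10 mast cell genes as well as for most macrophage markers (37.5% of all genes). The part of Srf and of these cell types in the spread of the pools was not tested.

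Markers of other cells also differed between the groups, and their levels stand beside the macrophage results for that reason. For blood endothelium 9 of 10 genes were higher in mutant than in WT corneas and 1, Kdr, a receptor for VEGF, was lower (−0.58), and the mean level of the list was 7.68 to 7.99 in rescued pools, 8.05 to 8.60 in mutant pools and 6.66 to 6.79 in WT pools. For mast cells 7 of 10 were higher in the mutant and 1, Kit, was lower (−1.31; limma, adjusted p = 1.11e-05). The mast cell list means were 5.86 to 6.23 in rescued, 6.17 to 7.17 in mutant and 5.45 to 5.52 in WT pools. Cpa3 and Mcpt4, mast cell proteases, had mutant minus WT differences of 3.37 and 3.81. For T, B and NK cells 3 of 13 were higher, Cd3g (2.31), Cd3e (1.00) and Cd4 (0.98), with list means of 6.37 to 6.60, 6.39 to 6.70 and 6.12 to 6.21 in rescued, mutant and WT pools. Eosinophil and basophil genes were higher in 1 of 6, with means of 5.48 to 5.57 in rescued pools, 5.55 to 5.68 in mutant pools and 5.48 to 5.57 in WT pools.

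Of 6 red cell and platelet genes 2 were higher in the mutant, the platelet chemokine genes Ppbp (7.13) and Pf4 (1.06). The platelet genes Itga2b (−0.16), Gp9 (−0.07) and Gp5 (0.32) and the red cell gene Slc4a1 (−0.03) were not called. Genes of corneal epithelium averaged 12.81 to 12.91 in rescued pools, 12.16 to 12.22 in mutant pools and 12.89 to 12.92 in WT pools. Keratocyte genes were lower in the mutant in 4 of 8 and corneal endothelial genes in 5 of 5. Lens genes, listed as a check for lens tissue in the samples, were lower in 4 of 8, with list means of 8.04 to 8.33 in rescued, 8.17 to 8.89 in mutant and 9.12 to 9.46 in WT pools. Ptprc, Tyrobp, Fcer1g, Fcgr2b and Fcgr3 are active in mast, NK or B cells too, and the share of those cells in their values was not tested. Y-linked genes were low in WT pools 1 and 3, with a mean level of 5.34 and 5.14, against 7.16 to 9.77 in the other 7 pools. With their mean as a covariate, 30 markers were called higher in mutant than in WT corneas, 2 lower in rescued than in mutant corneas and 20 higher in rescued than in WT corneas.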

How the data were processed

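Total RNA of whole corneas was extracted with Trizol, made into cRNA (Ambion WT Expression kit) and labelled with biotin by the Affymetrix WT Terminal Labeling kit for arrays of 1 colour, per the labels. The deposited table holds log2 intensities that the authors normalised; the sources used here do not give their method, software or genome build. The range of 2.14 to 14.3 points to base 2. Array medians were 6.75 to 6.78. Intensities are relative, and 3 arrays a group limit the precision.

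Of 41345 rows 23521 had 1 symbol, 1814 had several and 16010 were not listed. For 1082 genes with several rows, 1 member (Cd209a) among them, the brightest was kept, which left 22180 genes without a filter on level. The 3 comparisons were fitted with limma 3.58.1 in R 4.3.3 over all 9 arrays (lmFit, contrasts and eBayes, two-sided), with Benjamini-Hochberg adjustment over all genes. SEs are moderated SEs. The fit was tested on simulated data. The second Cd209a row was fitted with all 23521 rows. Promoter windows came from RefSeq (GRCm38.p6), and figures and counts were made with Python 3.11.15, pandas 2.3.3 and matplotlib 3.10.9.

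Markers, further gene lists and tests were chosen with earlier results of these data known, and support nothing on their own. Values in every pool were given for Ptprc, for the up to 6 members of a class with the largest called mutant minus WT difference, for members called against most of their class and for those whose rescued pools span more than 1 log2 unit; Cd14, Lyz2, Cd68, Cx3cr1 and Tyrobp were added after their values were seen, as were Spi1, Irf8, Cebpb, S100a8, S100a9, Cxcr2 and the other non-member genes outside the top 3 of a list. Same-numbered arrays of different groups had deviations that correlated at −0.016 to 0.063, so the replicate numbers do not pair the pools. Alternatives were quantile normalisation, median centring, a filter on dim genes, averaging the rows of each gene, trend and robust moderation, array weights, the 6 arrays compared, a replicate block, a Y-linked covariate, stricter thresholds and leaving out each array.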

Additional observations from a re-analysis of the deposited data

Results flagged for a closer look

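A second row for Cd209a lay outside the measurements used above because it is the dimmer of 2 rows, and it rose well above the WT pools. It was at 7.51, 8.48 and 7.29 in rescued pools 1, 2 and 3, at 8.75, 7.97 and 7.97 in mutant pools and at 5.75, 6.58 and 5.73 in WT pools. The mutant minus WT difference was 2.209 on the log2 scale (SE 0.347, at least 4.62-fold; limma over all rows, adjusted p = 0.000899), and the rescued minus WT difference was 1.744 (SE 0.347; limma, adjusted p = 0.0099). The rescued minus mutant difference of −0.465 was not called (limma, adjusted p = 0.458). The brighter row ran between 10.06 and 10.48 over all 9 arrays. Members of the Cd209 family are similar in sequence, and which transcripts each row reports was not tested.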

How the results depend on the processing

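Quantile normalisation, median centring, array weights, trend and robust moderation and the mean of all rows left every count of called markers, over all members and by class, within 1.5 times the values above. The replicate block gave 34 markers higher in mutant than in WT, 2 lower in rescued than in mutant and 19 higher in rescued than in WT corneas, where it lost C1qa, Ccr2, Cd86, Ccr7 and Clec10a; the dendritic cell count there was 2 in place of 5. For mutant minus WT, a filter on dim genes left 21 markers higher (2 dendritic cell, 1 neutrophil), because fewer were tested, and a minimum of 1 log2 unit left 19 (2 and 1). For rescued minus mutant the number lower was 4 (3 macrophage) with the filter, 1 (0 macrophage) with the 6 arrays compared or at an adjusted p under 0.01, and 0 in each class at 1 log2 unit. For rescued minus WT the number higher was 12 at an adjusted p under 0.01 (11 macrophage, 0 dendritic cell) and 13 at 1 log2 unit (0 dendritic cell, 0 neutrophil). Dendritic cell markers numbered 2 with the filter, 3 with the 6 arrays compared and 3 with the Y-linked covariate, and neutrophil markers 2 with the 6 arrays compared. Leaving out each array gave 29 to 35 for mutant minus WT (macrophage 20 to 24, dendritic cell 5 to 6, neutrophil 4 to 5), 1 to 6 for rescued minus mutant (0 to 4, 0 to 0 and 1 to 2) and 15 to 26 for rescued minus WT (14 to 21, 0 to 5 and 1 to 2). The lowest of the last range was without rescued pool 2. Cd209a reversed, to 0.982 for mutant minus WT and 0.766 for rescued minus WT as the mean of its rows and to 2.209 by the other row alone, an alternative chosen after seeing the data. Of the differences of the members named by rule, 947 kept their call, or their lack of one, under the alternatives. A call was lost by 49 and gained by 7, and 3, all of Cd209a, reversed. A change of sign where neither fit was called was counted among the 947. Where no construction of the setting shows it, the cause was not tested. Signal near background limits most dendritic cell and neutrophil markers.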
